A study of Mus musculus with 2 samples.

Results

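The genes described here are markers of the 2-cell-like state of mouse embryonic stem (ES) cells: the Zscan4 cluster, the Tcstv genes and Zfp352. Probes were taken by name, as every non-control probe named Zscan4 or Tcstv with any suffix, or Zfp352. This gave 9 probes under 7 of the 31829 names on the array, out of 39429 probes: 3 probes for Zscan4c and 1 each for Zscan4e, Zscan4f, Zscan4-ps1, Tcstv1, Tcstv3 and Zfp352. No probe carries the name Zscan4d, but its transcript is listed for 3 of the 9. Each of the 9 was printed once per array, and none was flagged as an outlier.

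The cells were ZHBTc4 ES cells, in which the endogenous Oct4 (Pou5f1) is disrupted and a transgene supplies Oct4 until doxycycline shuts it down. 3 clones were compared on 2 two-colour arrays: clone #2-5 carrying pCAG-IP/EGFP, clone #9 carrying pCAG-IP/Oct4-EGFP, and clone #26 carrying pCAG-IP/Nr5a2-EGFP, each expressed from the CAG promoter, which is active in most cell types. All 3 clones received doxycycline before harvest, for a time not given in the sources used here, and grew without feeders in 15% serum and 1000 IU/ml LIF. The EGFP array carried the EGFP clone in Cy3 and the Oct4 array the Oct4-EGFP clone in Cy3, each beside the Nr5a2-EGFP clone in Cy5. With that clone in Cy5 on both arrays, its difference from another clone cannot be told apart from a dye effect of a probe. Each construct is represented by 1 monoclonal line and each pair of clones by 1 array without a dye swap, so a construct's effect and a clone's own state cannot be told apart, no test between clones was possible, and no p-value is given.

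Zscan4 proteins carry a SCAN domain and zinc fingers. In the embryo the genes are transcribed at the 2-cell stage, and in ES cell cultures they come on in short bursts in a small minority of cells, together with Dux targets and transcripts of the MERVL retrovirus. ZSCAN4 is known for its part in telomere lengthening and genome stability in ES cells. Tcstv1 and Tcstv3 are small 2-cell-stage genes that lie in a repeated cluster, and Zfp352 is a zinc finger gene of the early embryo. A signal from such a rare state is the product of how many cells are in it and how much RNA each of them holds, and these arrays of whole cultures cannot separate fewer such cells from less RNA per cell.

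The Zscan4 copies are near-identical, so what each probe can read matters for every value that follows. The sequences here were read from the scanner files and are shown to make that visible: the whole of the Zscan4c probe that read differently from the others, the first 30 bases of 4 probes on which the results turn, and, for Zscan4f and Zscan4-ps1, 30 aligned bases towards the 3′ end with their 2 mismatches in capitals.
Zscan4c probe 1: tacagtgttcttgacagaagcctggcattc
Zscan4c probe 2: atcccaagtcttagggttgcaagttaaatg
Zscan4c probe 3: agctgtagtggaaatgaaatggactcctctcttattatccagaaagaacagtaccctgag
Zscan4f: atgatataacatgcttgtGgaTtgccactt
Zscan4-ps1: atgatataacatgcttgtAgaGtgccactt
Tcstv1: aaggtgttctaattctgaggcactttgttt
Zfp352: aatcagatctgtctcccttttagctccttt

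On mm9, the build of the file headers, probes 1 and 2 of Zscan4c (NM_001013765) lie side by side on chromosome 7, at 11595690 to 11595748 and 11595751 to 11595810. Probe 3 lies upstream of them at 11594425 to 11594484. The Zscan4e probe (NM_001161802) lies at 11891736 to 11891795 and the Zscan4f probe (NM_001110316) at 11987608 to 11987667, in the same cluster. The probe of the pseudogene Zscan4-ps1 lies at 11650658 to 11650717. The Zfp352 probe (NM_153102) lies on chromosome 4 at 89892270 to 89892329. The files leave the Tcstv1 probe (NM_018756) unmapped and put the Tcstv3 probe (NM_153523) on the unplaced sequence Un_random, at 3205 to 3264. With no mm9 annotation used here, the exon or untranslated region under each probe is not stated.

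The accession lists in the files show that most Zscan4 probes are not specific to 1 copy. The Zscan4e and Zscan4f probes each list transcripts that RefSeq assigns to Zscan4c, Zscan4d and Zscan4f, and probe 3 of Zscan4c lists those of Zscan4c and Zscan4d. Probe 1 of Zscan4c lists 3 predicted transcripts beside Zscan4c, while probe 2 lists Zscan4c alone. Probe 2 still shares a run of bases with a pseudogene probe described later, so its list does not make it specific. RefSeq holds Zscan4e as a pseudogene, so the signal under that name can come from the coding copies. The Zscan4f and Zscan4-ps1 probes match at 52 of 58 aligned bases (89.7%). No other pair of the 9 had 30 matching bases. The Zscan4 values are therefore readings of 1 gene family with overlapping targets, not independent genes.

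The bright Zscan4 probes read lower in the Nr5a2-EGFP clone than in both other clones, Tcstv1 did so to a smaller degree, and Zfp352 did not. Values for single channels are the scanner software's processed signals in arbitrary units, and a log2 ratio of 1 in either direction, that is 2-fold, was the rule of size. Of the 9 probes, 7 were well above background in at least 1 channel of each comparison. Against the EGFP clone, 5 of the 7 were at least 2-fold lower and 1 was at least 2-fold higher, where 5.21% and 3.35% of all probes measured were. Against the Oct4-EGFP clone, 4 of 7 were lower (probes 1 and 2 of Zscan4c, Zscan4e and Tcstv1) and 0 higher, where 7.45% and 4.49% of all probes were. Some probes entered only through the brighter clone, namely Zscan4f on the EGFP array, and Zscan4c probe 3, Zscan4e and Zscan4f on the Oct4 array, so their place among the lower probes is partly set by the filter. Of the probes well above background in both channels, 4 of 6 were lower against EGFP and 3 of 4 against Oct4-EGFP. Under the same filter, 1566 of 29969 and 2128 of 29869 of all probes were lower. The comparisons share the Nr5a2-EGFP clone, and the probes share targets, so these counts do not add up as separate evidence.

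Zscan4c was read by 3 probes. Its probe 1 gave 11448 with EGFP and 4358 with Oct4-EGFP. With Nr5a2-EGFP it gave 921 on the EGFP array and 531 on the Oct4 array, the order kept for all later pairs of readings. Both readings of the Nr5a2-EGFP clone were below both other clones. The log2 ratio was -3.54 over EGFP, an 11.6-fold difference, and -2.93 over Oct4-EGFP, a 7.63-fold difference. Among the 29969 probes well above background in both channels of the EGFP array, only 5 had a lower ratio than this probe. On the Oct4 array its rank from the lowest was 66 of 29869.

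Probe 2, next to it on the genome, gave 5533 with EGFP, 2516 with Oct4-EGFP, and 439 and 283 with Nr5a2-EGFP. Its log2 ratios of -3.48 and -2.93 were within 0.1 of those of probe 1 on both arrays. The order of the clones was the same for both probes, EGFP highest, Oct4-EGFP between and Nr5a2-EGFP lowest.

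Probe 3 of Zscan4c did not show this difference, but it was too dim to show a drop of that size. It was dim, at 113 with EGFP, 47.7 with Oct4-EGFP, and 63.4 and 25.0 with Nr5a2-EGFP, where the second reading was not well above background. Its log2 ratio over EGFP was -0.38, and over Oct4-EGFP it was at least 1.12-fold lower, both short of the 2-fold rule. Its fitted ratio over Oct4-EGFP turned to 0.23 when the Nr5a2-EGFP level came from the EGFP array. The probes named Zscan4c thus disagreed by more than 3 on the log2 scale on the EGFP array. With the software's ratio the gap was narrower, at -0.83 for probe 3 beside -3.64 and -3.66 for probes 1 and 2.

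The probe named Zscan4e gave 572 with EGFP, 186 with Oct4-EGFP, and 54.7 and 34.4 with Nr5a2-EGFP, the 34.4 being not well above background. Nr5a2-EGFP was 4.81-fold below EGFP (log2 ratio -2.27, or -3.39 with the software's ratio) and at least 2.42-fold below Oct4-EGFP. The Zscan4f probe gave 386 with EGFP and 85.1 with Oct4-EGFP, and its 19.5 and 22.6 with Nr5a2-EGFP were not well above background. With Nr5a2-EGFP it was at least 4.02-fold below EGFP and at least 1.57-fold below Oct4-EGFP. These bounds set the brighter level against the higher of the dim probe's own level and the lowest level of any probe well above background in that channel, and are open to dye bias. Each of these probes kept the order of the clones seen for probes 1 and 2 of Zscan4c.

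Zscan4-ps1 was not well above background in any channel (32.9, 19.2, 10.4 and 10.7 in the EGFP, Oct4-EGFP and both Nr5a2-EGFP readings), and gives no ratio. Tcstv3 was not well above background anywhere either, at 10.7 with EGFP, 37.7 with Oct4-EGFP, and 11.0 and 11.6 with Nr5a2-EGFP. These are bounds on what this array could read, not evidence that the genes were silent.

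Tcstv1, the other gene of the 2-cell-stage variable group, was dim but measured in all 4 channels. It gave 262 with EGFP, 212 with Oct4-EGFP, and 66.5 and 51.9 with Nr5a2-EGFP. The clones with EGFP and Oct4-EGFP read close to each other, and the Nr5a2-EGFP clone was below both. The log2 ratio was -1.22 against EGFP, a 2.32-fold difference, and -1.26 against Oct4-EGFP, a 2.39-fold difference. A dye effect of this probe would also give like ratios on both arrays, and cannot be told apart from a difference of the clone. With the scanner software's own ratio the values were larger, at -1.98 and -2.03.

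Zfp352 went the other way on the EGFP array. It was bright in every clone, at 4831 with EGFP, 9661 with Oct4-EGFP, and 10449 and 13215 with Nr5a2-EGFP. The EGFP clone was the lowest and the other clones lay close together. The log2 ratio was 1.07 over EGFP, a 2.10-fold difference just past the rule, and 0.46 over Oct4-EGFP, which became -0.19 when Nr5a2-EGFP was read from the EGFP array.

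**Figure D1:**
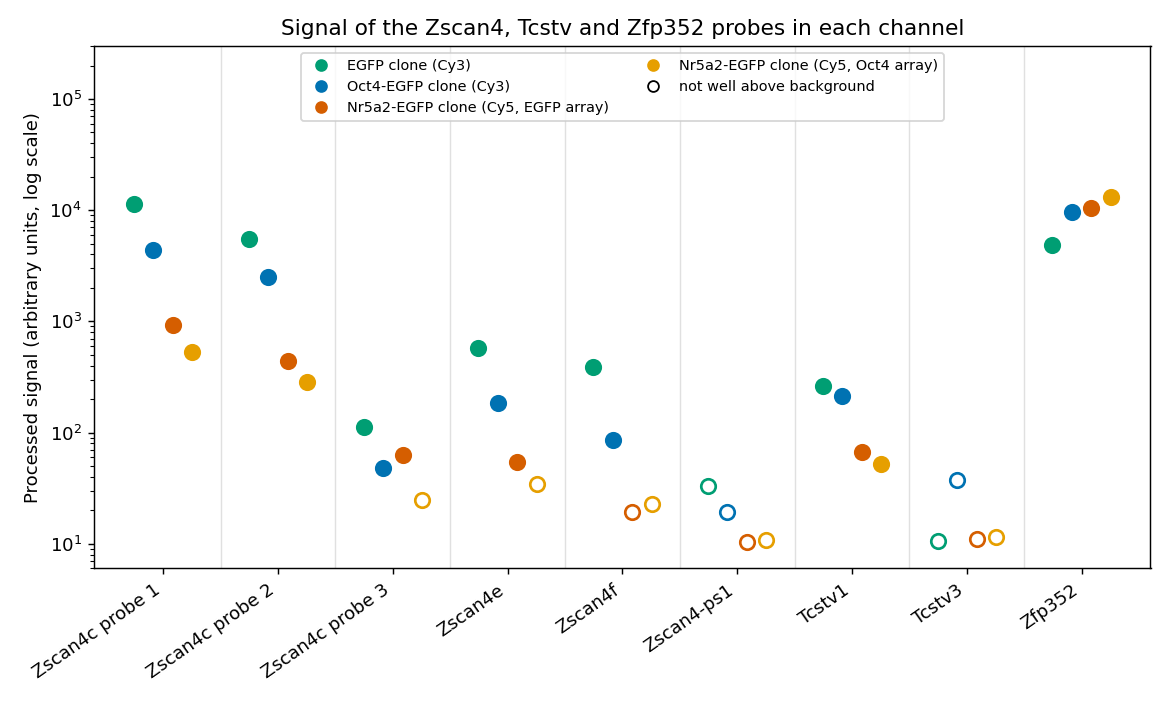
Processed signal (arbitrary units, log scale) of each of the 9 probes in the 4 channels; each point is 1 spot, and open points were not well above background. For probes 1 and 2 of Zscan4c, Zscan4e, Zscan4f and Tcstv1, both Nr5a2-EGFP readings lie below the EGFP and Oct4-EGFP clones, while Zfp352 is lowest in the EGFP clone; levels of different probes are not comparable.

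The Nr5a2-EGFP clone was the only one read more than once, which gives the sole measure of error between arrays. Across 29954 probes, its readings differed with an SD of 0.27 on the log2 scale, and 1.37% of probes were at least 2-fold apart. None of the 4 members well above background in both readings was, with log2 differences (Oct4 array minus EGFP array) of -0.54 and -0.38 for probes 1 and 2 of Zscan4c, -0.16 for Tcstv1 and 0.65 for Zfp352. The drops at probes 1 and 2 of Zscan4c with Nr5a2-EGFP were several times larger than this SD. The SD compares Cy5 with Cy5, so it covers hybridisation and reading but not separate cultures or a dye effect of a probe. Among the 399 probes printed 10 times, the median SD of the log2 ratio between spots was 0.068 and 0.066 on the EGFP and Oct4 arrays.

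**Figure D2:**
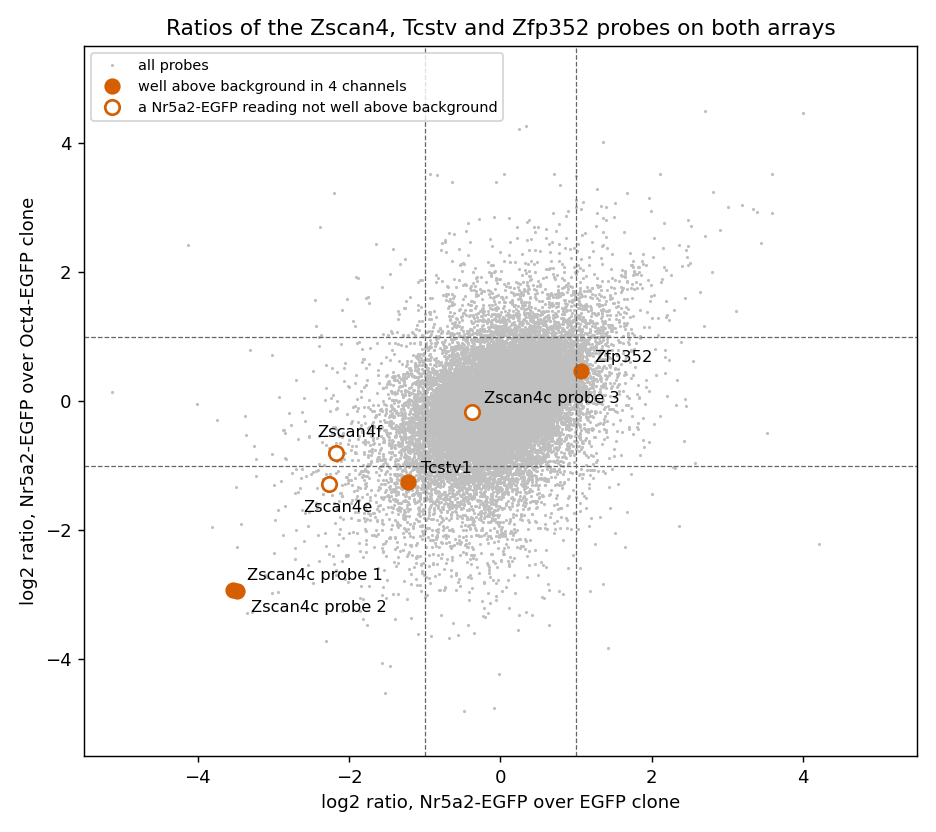
Log2 ratio on the EGFP array (x axis) against that on the Oct4 array (y axis), with the 7 measured members in orange over all probes in grey; open circles had a Nr5a2-EGFP reading not well above background, so their positions are fitted values where the text gives bounds. Probes 1 and 2 of Zscan4c lie at -3.54 and -3.48 on the x axis and -2.93 on the y axis; the axes share the Nr5a2-EGFP clone, so the slope of the cloud is partly built in.

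The Oct4-EGFP and EGFP clones were set against each other indirectly, as the difference of the log2 ratios, in which a dye effect of a probe cancels, and from the Cy3 levels alone. The Zscan4 probes read lower with Oct4-EGFP, but mostly within 2-fold. Of 7 measured members, 1 was at least 2-fold lower and 0 were higher, where 5.96% and 6.67% of all probes were. The 1 was Zscan4f, with a log2 ratio of -1.37 by both routes, or -2.40 with the software's ratio. The routes differ only by the Nr5a2-EGFP readings, which for this probe were not well above background, so their match is no check. Zscan4e had -0.99, or -1.14 from the Cy3 levels. Probes 1 and 2 of Zscan4c had -0.61 and -0.55, or -1.15 and -0.93 from the Cy3 levels, since Nr5a2-EGFP read lower on the Oct4 array. Probe 3 had -0.21, or -0.61.

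Tcstv1 did not differ between these clones beyond the error of a repeat reading, with 0.04, or -0.12 from the Cy3 levels. Zfp352 was higher in the Oct4-EGFP clone, at 0.61, or 1.26 from the Cy3 levels. In order of level, probes 1 and 2 of Zscan4c ran EGFP, Oct4-EGFP, Nr5a2-EGFP. The step from Oct4-EGFP down to Nr5a2-EGFP was the larger, at 7.63-fold for probe 1 and 7.65-fold for probe 2, and the step from EGFP to Oct4-EGFP was 2.22-fold for probe 1 and 1.90-fold for probe 2 from the Cy3 levels.

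3 probes that the name rule did not take bear on the same genes, and were found after the values were seen by searching the accession lists, synonyms and probe sequences. A probe named Gm4186, which RefSeq now calls the pseudogene Zscan4-ps3, shares a run of at least 20 bases with probe 2 of Zscan4c. The transcript it is named for is among the predicted ones listed for probe 1 of Zscan4c. The Gm4186 probe is therefore not independent of either. The Gm4186 probe gave 4914 with EGFP, 2152 with Oct4-EGFP, and 373 and 253 with Nr5a2-EGFP. Its log2 ratios, -3.45 over EGFP and -2.84 over Oct4-EGFP, were close to those of the Zscan4c probe whose sequence it shares. Of 2 probes named AF067061, the dimmer lists a Tcstv3 transcript. It gave 956 with EGFP, 813 with Oct4-EGFP, and 113 and 96.0 with Nr5a2-EGFP, and its log2 ratios were -2.39 over EGFP and -2.48 over Oct4-EGFP. Like Tcstv1, it had a small difference between Oct4-EGFP and EGFP (0.08) and read lower in the Nr5a2-EGFP clone. Here too, a dye effect of the probe cannot be told apart from a difference of the clone. The brighter AF067061 probe did not share the drop, with -0.33 over EGFP and 0.06 over Oct4-EGFP. The probe of Zfp353 lists a Zfp352 transcript and was dim, with a log2 ratio of -0.11 over Oct4-EGFP. Its Nr5a2-EGFP reading on the EGFP array was not well above background, at least 1.08-fold below EGFP.

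The promoters of the Zscan4 copies show how alike the copies are upstream of their transcripts. RefSeq windows of GRCm38.p6, from 250 bases before to 50 after the annotated start, were found for Zscan4b, Zscan4c, Zscan4d, Zscan4f and Zfp352. Aligned pair by pair, the Zscan4 windows were 95.3% to 99.3% identical, with Zscan4c and Zscan4f the closest pair. 80 bases of each are shown in the direction of transcription, with matches to the motifs described after them in capitals; they lie at chr7:10905187-10905266 (Zscan4b, minus strand), chr7:11005506-11005585 (Zscan4c, plus), chr7:11166319-11166398 (Zscan4d, minus) and chr7:11397699-11397778 (Zscan4f, plus).
Zscan4b: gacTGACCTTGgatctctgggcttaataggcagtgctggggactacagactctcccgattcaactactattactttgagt
Zscan4c: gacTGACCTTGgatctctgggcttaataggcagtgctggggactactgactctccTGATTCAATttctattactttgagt
Zscan4d: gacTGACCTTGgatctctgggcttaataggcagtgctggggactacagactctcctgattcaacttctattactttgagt
Zscan4f: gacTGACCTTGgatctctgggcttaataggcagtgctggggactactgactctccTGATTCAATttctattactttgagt

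The letters CAAGGTCA, the extended half-site that NR5A receptors and the orphan receptor ESRRB are known to bind, were found once in each of the 4 Zscan4 windows, on the strand opposite to transcription and so printed as its complement. Their first base lay at -213 in Zscan4b and Zscan4f, -236 in Zscan4c and -247 in Zscan4d. Of all 32851 promoter windows, 1.56% hold this motif on either strand. The letters TGATTNAAT, the core of the motif known for the 2-cell-stage factor DUX, were found in Zscan4c and Zscan4f in the stretch shown and in Zscan4b elsewhere in its window on the other strand, against 0.718% of all windows, and were not found in Zscan4d. The octamer ATGCAAAT, bound by Oct4, was in none of the 5 windows and in 1.74% of all. A TATAAA box was in all 4 Zscan4 windows and in 13.6% of all. The Zfp352 window held none of the 4 motifs. The motifs were chosen with the sequences in view, the 4 windows are copies of one another, and a match is a run of letters, not a measured site.

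**Figure D3:**
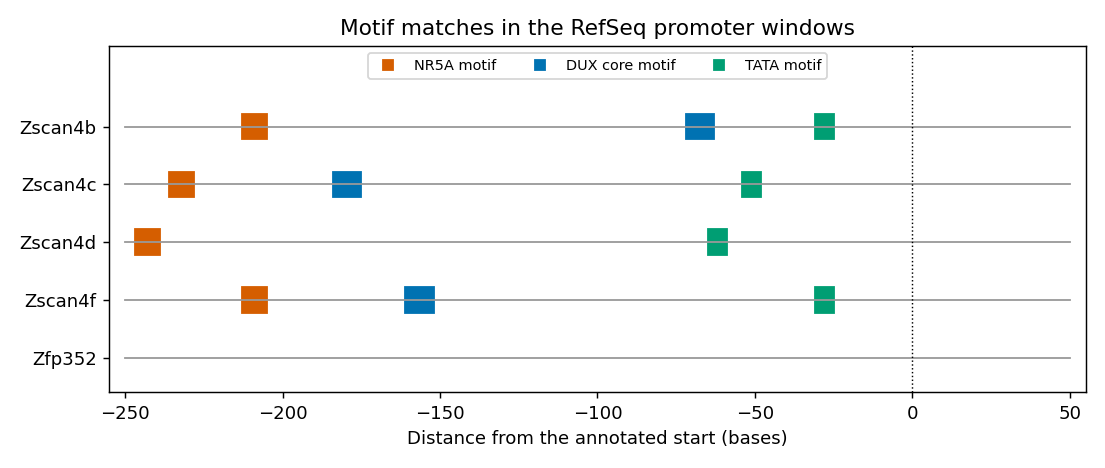
Matches to the NR5A, DUX core and TATA motifs (coloured boxes, to scale) in the promoter windows of 5 genes; the x axis is the distance in bases from the annotated start, marked by the dotted line. The NR5A match is present in all 4 Zscan4 windows and absent from that of Zfp352, which holds no match at all. The 4 Zscan4 windows are near-identical copies, so their matches are not separate cases, and a match is not a measured site.

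Other genes of the 2-cell-like state were described from a list of 42 names, of which 29 were found on the array and 26 were measured in each comparison. Over EGFP, 6 were at least 2-fold lower in the Nr5a2-EGFP clone and 1 was higher, where 5.11% and 3.36% of all genes were, and the list median was -0.14 beside 0.03 for all genes. Gm5662 had the lowest ratio, -1.89, with signals of 2232 in the EGFP clone and 570 in the Nr5a2-EGFP clone. Gm4340 had -1.79, Pramel37 -1.65 with -0.32 at its other probe, Gm2016 -1.62 and the arginase gene Arg2 -1.46. The 1 higher gene was Calcoco2, which encodes an autophagy receptor, at 1.64 with 1.60 at its other probe. Dux itself, the transcription factor that switches on this programme, was dim, at 117 with EGFP and 174 with Nr5a2-EGFP, and had 0.31.

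Family by family, 2 of 6 Pramel genes were lower over EGFP (range -1.65 to 0.18), while none of the 4 Usp17l or 3 Tdpoz genes passed the 2-fold rule. Usp17lb and Tdpoz1 were not well above background with Nr5a2-EGFP, at least 1.30-fold and at least 1.12-fold below EGFP, and Usp17la was saturated in 1 channel, so a larger difference of these cannot be read. The remaining genes of both families ranged from -0.05 (Tdpoz3) to 0.31 (Tdpoz2). Over Oct4-EGFP, 2 genes of the list were lower and 2 higher, where 7.19% and 4.58% of all genes were, with a median of -0.05 beside 0.01 for all genes. Gm5662 (-1.33) and Arg2 (-1.13) were lower, and Calcoco2 (2.01) and the ribosomal protein gene copy Rpl10l (1.20) were higher. With Nr5a2-EGFP read from the EGFP array, Arg2 had -0.91 and was no longer past the rule, while Pramel31 passed it at 1.08 in place of 0.90. Between Oct4-EGFP and EGFP, 0 were higher and 2 lower, Rpl10l (-2.07) and Gm4340 (-1.17, or -2.14 from the Cy3 levels), where 6.53% and 5.88% of all genes were, with a median of -0.23 beside 0.02. The drop at probes 1 and 2 of Zscan4c was thus not matched in size by any gene measured on this list, as read at each gene's brightest probe. Gm4971, Pramel20, Sp110 and Usp17la were saturated in at least 1 channel of each array, so the size of their differences cannot be read. The difference between Zscan4c and the list was not tested.

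Genes known to control the 2-cell-like state mostly read within 2-fold. Of 35 measured, 2 were higher and 0 lower over EGFP, 4 higher and 1 lower over Oct4-EGFP, and 2 higher and 5 lower for Oct4-EGFP over EGFP, with medians of 0.07, 0.25 and -0.11 beside 0.03, 0.01 and 0.02 for all genes. Of all genes, 3.36% were higher and 5.11% lower over EGFP, 4.58% and 7.19% over Oct4-EGFP, and 6.53% and 5.88% for Oct4-EGFP over EGFP. Among factors that favour the state, Tbx3, a T-box factor known to raise Zscan4 in ES cells, was saturated with Nr5a2-EGFP and at least 2.80-fold higher than with EGFP, opposite to the direction of the Zscan4 probes. Dppa2, a DNA-binding protein that activates Dux, had -0.40 over EGFP, 1.11 over Oct4-EGFP (0.76 at its other probe) and -1.51 for Oct4-EGFP over EGFP (-1.04 at its other probe). Its partner Dppa4 had -0.02, -0.49 and 0.47, and Nelfa, which encodes a pausing factor tied to the state, 0.50, 0.61 and -0.11.

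Among factors that hold the state back, Kdm1a, a histone demethylase, had -0.61 over EGFP, 1.17 over Oct4-EGFP and -1.78 for Oct4-EGFP over EGFP. Its readings with Nr5a2-EGFP differed by 0.55, and with the other reading its value over Oct4-EGFP was 0.61, within 2-fold. Its partner Rcor1 had 1.46 over EGFP, but -0.09 at its other probe. Trim28, the corepressor of retroviral elements, had 0.09, 0.56 and -0.47, and Rif1, a telomere-associated repressor of Zscan4, -0.05, 0.25 and -0.30. Max had -0.97 over EGFP, and its Polycomb partner E2f6 -1.37 for Oct4-EGFP over EGFP. The deacetylase gene Hdac2 had -1.13 over Oct4-EGFP.

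Telomere and recombination genes, given because ZSCAN4 acts at telomeres, were mostly within 2-fold. Of 17 measured, 0 were higher and 1 lower over EGFP, 1 higher and 0 lower over Oct4-EGFP, and 0 higher and 2 lower for Oct4-EGFP over EGFP, with medians of -0.17, -0.01 and -0.04. These counts stand beside 5.11% of all genes lower over EGFP, 4.58% higher over Oct4-EGFP and 5.88% lower for Oct4-EGFP over EGFP. Smc1b, a meiotic cohesin subunit, had -1.26 over EGFP and -1.08 for Oct4-EGFP over EGFP. Daxx, a chaperone of histone H3.3 at telomeres, had 0.92 and 1.24 over EGFP and Oct4-EGFP, and the double-strand break gene Rad50 -0.76 over EGFP and -1.01 for Oct4-EGFP over EGFP. The other Rad50 probe gave -0.43 and -0.13. Dmc1 (-0.59) and Pot1b (0.53) over Oct4-EGFP were within 2-fold.

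**Figure D4:**
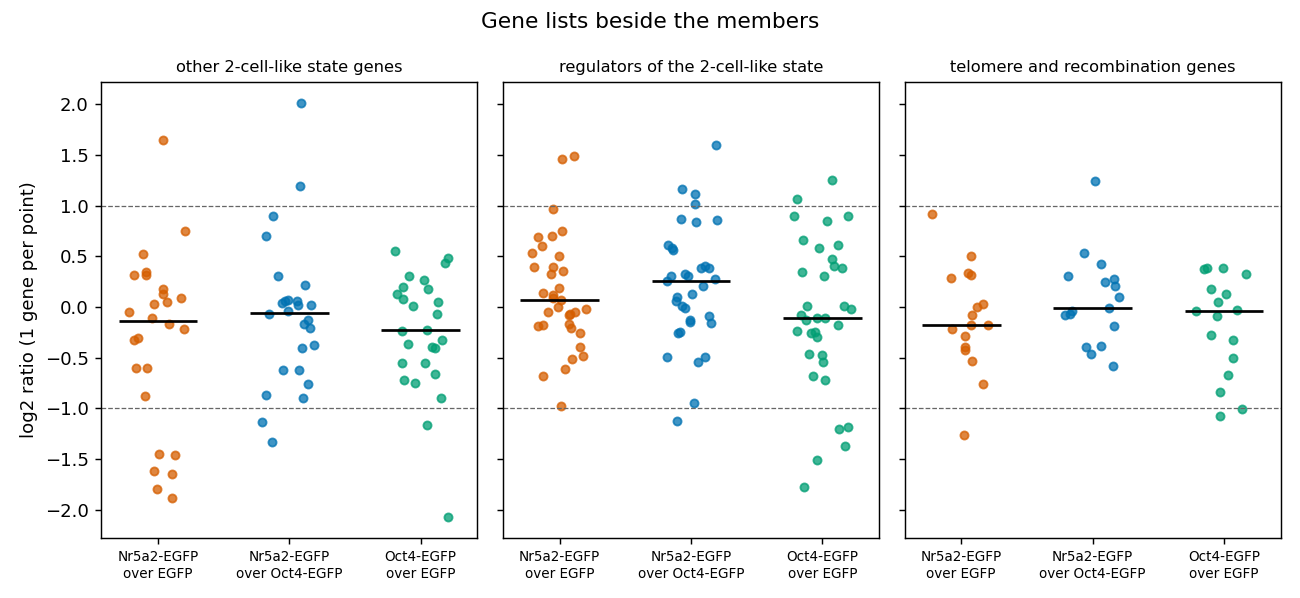
Log2 ratio of each measured gene (1 point per gene, at its brightest probe) of the 3 lists in the 3 comparisons; black bars are list medians and dashed lines mark 2-fold. In the left panel, of the other 2-cell-like genes, 6 points lie below -1 for Nr5a2-EGFP over EGFP, and most points of all panels lie within 2-fold.

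The genes with the pattern most like a member's were found by distance between log2 levels in the 4 channels, each gene centred on its own mean, among 17167 named genes well above background in all 4. By the rule, the reference was the member probe of highest mean processed signal, that of Zfp352, a choice that ranks no gene's expression. Its nearest genes were Arhgef26 (distance 0.0789), Hcrt (0.0949), Nup210l (0.102), Vmn1r219 (0.104) and Tmco5 (0.108), with log2 ratios of 0.97 to 1.10 over EGFP. Their Nr5a2-EGFP readings also differed between the arrays by 0.54 to 0.75, beside 0.65 for Zfp352. These genes were thus matched partly on a difference between arrays, not between clones. With probe 1 of Zscan4c as the reference instead, a choice made after the values were seen, the nearest genes were Adcy7 (0.518), Pla2g5 (0.552), Thumpd3 (0.665), Plcg1 (0.738) and Fcgbp (0.754). Members were left out of the candidates. So was the Gm4186 probe, under its old name, although its ratios of -3.45 and -2.84 were close to those of probe 1. These are thus the nearest genes outside the Zscan4 probes. Pla2g5, which encodes a secreted phospholipase, had -3.44 over EGFP and -2.85 over Oct4-EGFP, and Adcy7 -3.11 and -2.70. The 4 channels hold 3 clones, so many genes can share such a pattern.

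Markers of cell type moved between the clones beside these results. Of 10 ES cell genes, 2 were lower over EGFP, 6 were lower over Oct4-EGFP, and 4 were higher for Oct4-EGFP over EGFP (medians -0.12, -1.69 and 0.70). The shares of all genes were 5.11% lower over EGFP, 7.19% lower over Oct4-EGFP and 6.53% higher for Oct4-EGFP over EGFP. The 2 lower over EGFP, Esrrb (-2.30) and Fgf4 (-2.20), rest on 1 reading: with Nr5a2-EGFP read from the Oct4 array they had -0.85 and 0.73. The Nr5a2-EGFP readings (Oct4 array minus EGFP array) differed by 1.45 for Esrrb, 2.93 for Fgf4 and -1.14 for Zfp42. These are well beyond the SD of 0.27 over all probes, while the other ES cell genes were within 2-fold. With the other reading, or the Cy3 levels alone, 0, 5 and 6 of the 10 passed in the 3 comparisons. Of 9 trophoblast genes measured, 1 was higher and 1 lower over EGFP, 8 were higher over Oct4-EGFP, and 8 were lower for Oct4-EGFP over EGFP (medians -0.06, 2.04 and -1.49). Among all genes, 3.36% were higher and 5.11% lower over EGFP, 4.58% higher over Oct4-EGFP and 5.88% lower for Oct4-EGFP over EGFP. Summed over the 10 trophoblast genes on the array, the processed signal was 122012 with EGFP, 27877 with Oct4-EGFP, and 115729 and 93487 with Nr5a2-EGFP. That of the 10 ES cell genes was 217816, 341021, 125505 and 108766. In the EGFP clone, 105648 of this came from the brightest Nanog probe, which was saturated in at least 1 channel. The other Nanog probe had 1.70 over EGFP and 2.12 for Oct4-EGFP over EGFP, against -0.61 and -0.19 at the probe counted. Tdgf1 had 0.63 for Oct4-EGFP over EGFP at the probe counted, and 1.96 and 2.75 at its others. The ES cell counts and sums thus depend on the probe taken. The 7 fibroblast genes, 1 of them above background in no channel, summed to between 8073 and 13576 in the 4 channels. The part of these markers in the result was not tested.

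Nr5a2 itself read lower in the clone labelled with its transgene, at -0.92 against EGFP and -1.14 against Oct4-EGFP at its brighter probe. Pou5f1 was dim, at 118 with EGFP and 116 with Oct4-EGFP. The sources used here do not give which part of either transcript the constructs carry. Every direction in the text rests on the labels, which these values cannot check. Gapdh had 0.59 over EGFP and 0.01 over Oct4-EGFP at its brightest probe. Between 77.4% and 79.4% of probes were well above background in the 4 channels.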

How the data were processed

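RNA of 3 clones was hybridised on 2 two-colour arrays of design 026655, and groups and dyes come from the labels. The spot intensity values were deposited as output of Agilent Feature Extraction, 10.7.3.1 per the file headers and 9.3.2.1 per the submitters' processing notes. The processed intensity was background-subtracted, detrended and dye-normalized, per the file headers, and the deposited log10 ratio is Cy5 over Cy3. The value table deposited by the authors gives log2 ratios that followed it at r = 0.997 on both arrays (medians 0.03 and 0.05); how it was centred is not known here. The flags for background, saturation and outliers, a score of 0 or 1, are as deposited.

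Mean signals were corrected by normexp (offset 50) and loess in limma 3.58.1 (R 4.3.3), leaving out control spots and 530 (EGFP array) and 523 (Oct4 array) outlier spots. Levels were scaled between arrays by Aquantile. A probe entered a comparison if well above background in at least 1 channel, and genes were read at their brightest probe. Names were updated by accession (66.1% of 39429 probes matched RefSeq). Precision is limited by the number of arrays. The steps were tested on simulated arrays.

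Members and gene lists were chosen with earlier results of these data known. Named are all member probes, the 3 genes per list and comparison with the largest ratios, 7 set regulators and the 5 nearest in pattern. Arg2, Gm2016, Dux, Pramel31, Esrrb, Fgf4, Zfp42 and the Usp17l and Tdpoz genes were named after their values were seen. Some genes that the rule names are not reported here.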

Additional observations from a re-analysis of the deposited data

How the results depend on the processing

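The alternatives changed the within-array step, the background step, the source of the ratio, outlier spots, the Nr5a2-EGFP reading used and the filter on dim probes. Over EGFP and over Oct4-EGFP, the counts of members at least 2-fold lower stayed within 1.5 times of 5 and 4 under all of them. For Oct4-EGFP over EGFP, the 1 lower member became 2 with subtracted background or an offset of 16 and 3 with the Cy3 levels alone. Probe 1 of Zscan4c ranged from -4.08 to -3.35 over EGFP and from -3.04 to -2.39 over Oct4-EGFP, and dim probes moved most, Zscan4f from -4.31 to -2.11 over EGFP. No member past the 2-fold rule changed sign; 42 single values moved by more than the SD of a repeat reading and 105 did not, leaving aside the filters on dim probes, which cannot move a single value. The 4 called 2-cell-like genes over Oct4-EGFP became 7 with the software's ratio or the value table, and the 5 called regulators became 3 with the mean over probes. For telomere genes, the 1 over EGFP became 2 with median centring, the 1 over Oct4-EGFP became 2 with the software's ratio and 3 with the value table, and the 2 for Oct4-EGFP over EGFP became 0 with median centring and 1 with the mean over probes. The cause was not tested.

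Median centring in place of loess moved the median of all probes to 0.14 over EGFP, and higher probes made up 61.9% of calls in place of 39.1%; Zscan4c at -3.35 and Zfp352 at 1.29 are to be read against that shift. All probes called over EGFP numbered 2727, 4957 with the software's ratio and 4950 with the value table; over Oct4-EGFP 3813, 5801 and 5822; for Oct4-EGFP over EGFP 4086, 6455 and 6318. Signal over background limits Zscan4f, Zscan4e and probe 3 of Zscan4c in the Nr5a2-EGFP clone, and Tcstv3 and Zscan4-ps1 everywhere. No paired analysis was possible because each pair of clones has 1 array.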
